A study of Arabidopsis thaliana with 4 samples.

Results

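The unnamed loci assembled by Cufflinks are stretches of transcribed sequence that carry no gene name and no description in the deposited expression table. They were chosen by their identifier alone, which begins with XLOC_ and stands beside a dash in place of a gene name. There are 161 such loci among the 22409 loci of the table, and 964 other loci with an XLOC_ identifier do carry a gene name. The remaining 21284 loci are annotated *Arabidopsis thaliana* genes. No measured value entered the choice, but an unannotated locus is in the table only because reads of these libraries assembled into a transcript there, and the table does not record in which library that happened. The named XLOC_ loci have the same kind of identifier, so their values are given beside those of the unnamed loci in the main comparisons. Whether their listing depended on these libraries in the same way is not known.

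The libraries came from whole 8-day-old seedlings of the Col-0 wild type (WT), the *upf1-5* single mutant, the *upf3-1* single mutant and the *upf1-5 upf3-1* double mutant, with 50 to 100 seedlings pooled per library. All plants were grown on 1/2 MS medium at 23°C under long days with 16 h of light and 8 h of dark, and were collected at zeitgeber time 16. *upf1-5* and *upf3-1* are T-DNA insertion lines, and the double mutant was made by crossing them. There was 1 library per genotype, so no value has a replicate error, no difference was tested, and all folds compare individual libraries. The table calls the double mutant by another name, NMD2, which was assigned to it by elimination.

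UPF1 is the RNA helicase at the centre of nonsense-mediated mRNA decay (NMD), and UPF3 is a partner that links it to the exon junctions of spliced transcripts. The pathway degrades RNAs on which translation ends early or far from the 3′ end, and it is known to act on aberrant mRNAs, on transcripts of pseudogenes and on mRNA-like non-coding RNAs with short reading frames. Cufflinks builds transcripts from aligned reads, and a locus listed under its running number can carry a gene name or none. A locus without a name can be a non-coding RNA, an antisense transcript, a missed exon or an unannotated gene, and nothing in the table separates these for the 161 loci. The table gives no coordinates for them, so no position, strand, length or sequence is reported.

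The level of a locus is given in FPKM, a fragment count scaled to the length of the transcript and the size of the library. The mutated genes served as a check of the labels. *UPF1* (AT5G47010) was measured at 23.9 FPKM in WT, 3.18 (*upf1-5*), 30.6 (*upf3-1*) and 8.27 FPKM (double mutant). *UPF3* (AT1G33980) was measured at 20.8 FPKM in WT, 33.7 (*upf1-5*), 6.36 (*upf3-1*) and 7.10 FPKM (double mutant). Each gene was lower in the libraries labelled as its mutants, and *UPF1* was higher in the double mutant than in *upf1-5*. Read counts are not in the table, so the depth of the libraries is unknown and no counting interval could be given for any locus. The labels name a kit for stranded mRNA libraries whereas the methods of the study describe removal of ribosomal RNA from total RNA, and these protocols recover RNAs without a poly(A) tail to different extents.

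Most of the unnamed loci were weakly expressed. Their median level was 2.59 FPKM in WT, with quartiles of 0.877 and 5.30 FPKM. It was 2.72 (*upf1-5*), 3.93 (*upf3-1*) and 3.41 FPKM (double mutant). The median over all loci lay between 11.9 and 12.5 FPKM in every library, so the typical unnamed locus was several-fold below the typical locus. The named XLOC_ loci were nearer, at 2.79, 3.31, 4.22 and 3.28 FPKM in the same order of libraries. Long non-coding RNA genes of the RefSeq annotation had medians of 4.07, 4.80, 5.96 and 5.79 FPKM.

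More unnamed loci passed a low level in the mutants than in WT. A level of 1 FPKM was reached by 99 loci in WT, 127 (*upf1-5*), 130 (*upf3-1*) and 142 (double mutant), or 61.5%, 78.9%, 80.7% and 88.2% of them. These shares rose in the same order over all loci, from 84.1% through 86.6% and 87.6% to 89.1%, and over the named XLOC_ loci, from 74.9% through 78.2% and 80.6% to 83.1%. A level of 10 FPKM was reached by 13, 25, 32 and 29 unnamed loci in these libraries, or 8.07%, 15.5%, 19.9% and 18% of them. The shares at this level were 52%, 53.3%, 54.4% and 55.4% over all loci. Over the named XLOC_ loci they were 17.9%, 19.4%, 25.1% and 20.6%. All but 1 of the 161 loci reached 1 FPKM in at least 1 library. The FPKM summed over the unnamed loci was 1065 in WT, 1443 (*upf1-5*), 1912 (*upf3-1*) and 1338 (double mutant), and the sum of *upf3-1* was 1575 without its highest locus, XLOC_008072. The sum over all loci itself differed, at 1.04e+06 in WT, 997083 (*upf1-5*), 797314 (*upf3-1*) and 775445 (double mutant). The unnamed loci made up 0.102%, 0.145%, 0.24% and 0.173% of it.

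**Figure D1:**
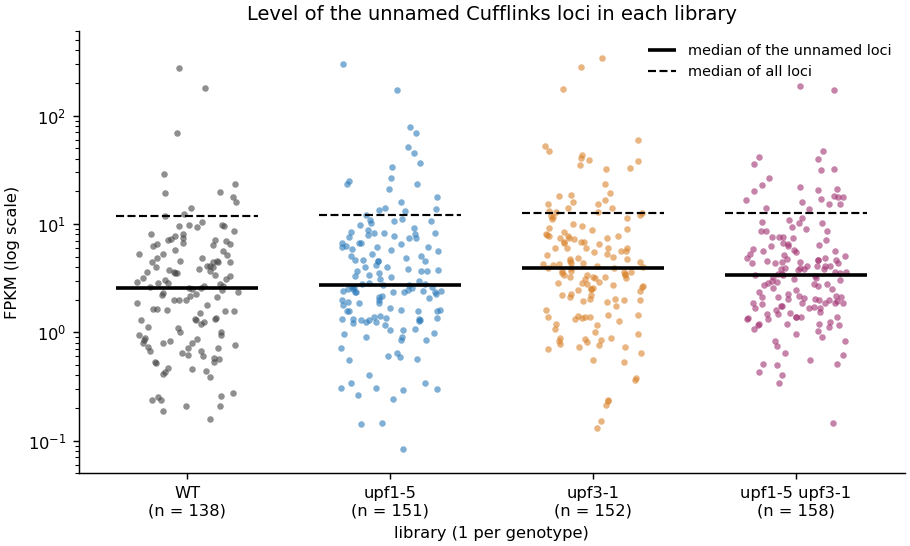
Level of each unnamed locus in each library, in FPKM on a log scale, with n the number of loci that have a value. Solid lines are the medians of the unnamed loci, lowest in WT (2.59 FPKM) and highest in *upf3-1* (3.93 FPKM), and dashed lines are the medians of all loci, and 1 value in the double mutant lies below the axis.

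A locus has no value in a library if it appears in no pair that holds the library. Of the unnamed loci, 129 had a value in every library and 32 (19.9%) lacked at least 1, whereas 7.78% of all loci and 16.3% of the named XLOC_ loci lacked one. The WT library lacked a value for 23 loci, *upf1-5* for 10, *upf3-1* for 9 and the double mutant for 3. WT was also the library with most gaps over all loci, where 4% (WT), 2.75% (*upf1-5*), 3.15% (*upf3-1*) and 1.3% (double mutant) lacked a value. Of the named XLOC_ loci, 6.33% lacked one in WT and as many in *upf1-5*, beside 14.3% and 6.21% of the unnamed loci. Of the 23 loci without a WT value, 22 reached 1 FPKM and 12 reached 5 FPKM in at least 1 mutant, and 12 of the 23 lacked a value in WT alone.

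The strongest of the loci with missing values peaked in different mutants. XLOC_008072 was measured at 33.3 FPKM in *upf1-5* and 337 FPKM in *upf3-1*, and had no value in WT or in the double mutant. XLOC_032078, listed in neither WT nor *upf1-5*, was at 43.1 (*upf3-1*) and 3.30 FPKM (double mutant). XLOC_013433, listed in neither WT nor *upf3-1*, was at 3.66 FPKM in *upf1-5* and 35.9 FPKM in the double mutant. XLOC_008072 and XLOC_013433 thus peaked in different mutants, and XLOC_008072 was the highest unnamed locus in any library. The others had values in all mutants and none in WT. XLOC_030354 was at 3.51 (*upf1-5*), 3.88 (*upf3-1*) and 22.0 FPKM (double mutant). XLOC_027209 was at 2.05, 1.60 and 10.9 FPKM in the same libraries. Both were highest in the double mutant, while XLOC_023342 peaked in *upf3-1*, with 6.09 (*upf1-5*), 15.8 (*upf3-1*) and 1.38 FPKM (double mutant). No fold to WT is given for these loci, because a missing value is not a measured 0.

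To describe how the loss of UPF1, UPF3 or both was accompanied by a change of these loci, a locus was called up- or down-regulated if its FPKM differed at least 2-fold and reached 1 in either library. This is the fold and the FPKM limit that the study applied. In *upf1-5*, 44 of the 122 unnamed loci compared with WT (36.1%) were up-regulated, against 7.64% of all loci, and 17 (13.9%) were down-regulated, against 2.4% of all loci. In *upf3-1*, 57 of 126 (45.2%) were up-regulated, against 14.6% of all loci, and 20 (15.9%) were down-regulated, against 6.91%. In the double mutant, 45 of 133 (33.8%) were up-regulated, against 15% of all loci, and 18 (13.5%) were down-regulated, against 6.91%. The unnamed loci exceeded the share of all loci in both directions in each mutant, as did the named XLOC_ loci described below. The up-regulated unnamed loci outnumbered the down-regulated ones, and the same held over all loci. There, 1498 were up and 470 down in *upf1-5*, 2891 and 1367 in *upf3-1*, and 2999 and 1382 in the double mutant. In tissue from whole seedlings, a change in the number of cells that hold a transcript and a change of its level per cell cannot be told apart.

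The median log2 ratio to WT over the unnamed loci compared was 0.36 (*upf1-5*), 0.75 (*upf3-1*) and 0.54 (double mutant), beside 0, -0.014 and 0.0098 over all loci. Of these contrasts, the one with the double mutant depended most on weak values. With 1 FPKM required in both libraries, 14 of 90 unnamed loci (15.6%) were up-regulated in the double mutant and 11 (12.2%) were down-regulated, against 10.4% and 6.29% of all loci. Under the same requirement, 23 of 89 (25.8%) were up-regulated in *upf1-5*, against 4.74% of all loci, and 30 of 86 (34.9%) in *upf3-1*, against 10.7%.

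Other classes of locus gave a scale for these shares. The named XLOC_ loci were up-regulated in 20.8% (*upf1-5*), 32.4% (*upf3-1*) and 26.1% (double mutant) of cases. Annotated pseudogenes, which can no longer encode a full protein, were up-regulated in 29.3%, 34% and 32.5%. Long non-coding RNA genes were up-regulated in 19.2%, 30.6% and 29.3%, and other non-coding RNA genes in 20.5%, 27.7% and 28.7%. The annotated genes without a RefSeq match were up-regulated in 22.1%, 37.5% and 35.1%. Protein-coding genes were lowest, with 6.47%, 13.2% and 13.9%. The unnamed loci had the highest share in the single mutants, and in the double mutant (33.8%) they stood below the unmatched annotated genes and close to the pseudogenes. Down-regulation was found in 13.9%, 15.9% and 13.5% of the unnamed loci and in 12%, 11% and 13.4% of the named XLOC_ loci, so that these classes hardly differed in the double mutant. It was found in 10%, 10.7% and 8.44% of the pseudogenes and in 2.05%, 10.9% and 8.16% of the long non-coding RNA genes.

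**Figure D2:**
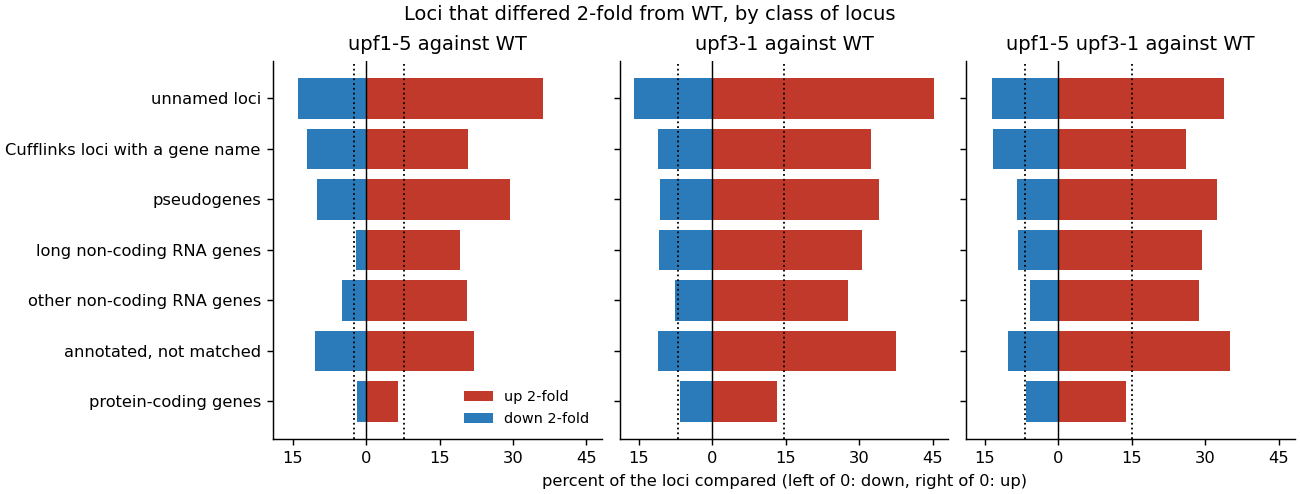
Percent of the loci compared that were up-regulated (red, right of 0) or down-regulated (blue, left of 0) at least 2-fold against WT, by class of locus, with the shares of all loci as dotted lines. Up-regulation of the unnamed loci reached 36.1% (*upf1-5*), 45.2% (*upf3-1*) and 33.8% (double mutant).

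Weakly expressed loci differ between libraries more often than strong ones, so the shares were also set beside loci of like abundance, taken as the mean FPKM over the libraries with a value. Of the unnamed loci, 8 lay below 1 FPKM, 26 between 1 and 2 FPKM and 71 between 2 and 5 FPKM. Another 33 lay between 5 and 10 FPKM, 19 between 10 and 50 FPKM and 4 above 50 FPKM. In the class of 10 to 50 FPKM, 9 of the 17 loci compared (52.9%) were up-regulated in each mutant, whereas other loci of that class were up-regulated in 3.51% (*upf1-5*), 7.84% (*upf3-1*) and 7.7% (double mutant) of cases. Named XLOC_ loci of the class were up-regulated in 15.5%, 28.9% and 20%. The class holds only 17 unnamed loci, and its mean includes the mutants, so that a locus such as XLOC_001926 or XLOC_027210, with less than 1 FPKM in WT, entered it through the mutants in which it was high. In the class of 5 to 10 FPKM, 14 of 29 (48.3%) were up-regulated in *upf1-5* against 7.74% of other loci, 15 of 30 (50%) in *upf3-1* against 16.2%, and 9 of 29 (31%) in the double mutant against 16.7%. Named XLOC_ loci of that abundance were up-regulated in 18.7%, 35.5% and 24.1%.

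Among the more weakly expressed loci the unnamed ones were closer to the rest. Between 2 and 5 FPKM, 14 of 56 unnamed loci (25%) were up-regulated in *upf1-5* against 16% of other loci, and 25 of 58 (43.1%) in *upf3-1* against 29.3%. In the double mutant the share at this abundance was 16 of 59 (27.1%), beside 28.8% of other loci, so the unnamed loci were not up-regulated more often there. Down-regulation in the same class and mutant was 18.6%, beside 6.38% of other loci and 14.5% of named XLOC_ loci. Named XLOC_ loci between 2 and 5 FPKM were up-regulated in 22.4% (*upf1-5*), 35.1% (*upf3-1*) and 27.6% (double mutant) of cases. Between 1 and 2 FPKM, 6 of 15 unnamed loci (40%) were up-regulated in *upf1-5* against 26.3% of other loci. There, 8 of 17 (47.1%) were up-regulated in *upf3-1* against 38.2%, and 8 of 19 (42.1%) in the double mutant against 40.5%. Named XLOC_ loci of that abundance were up-regulated in 27.1%, 34% and 33.3%. The 3 loci above 50 FPKM with a WT value were neither up- nor down-regulated in any mutant.

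**Figure D3:**
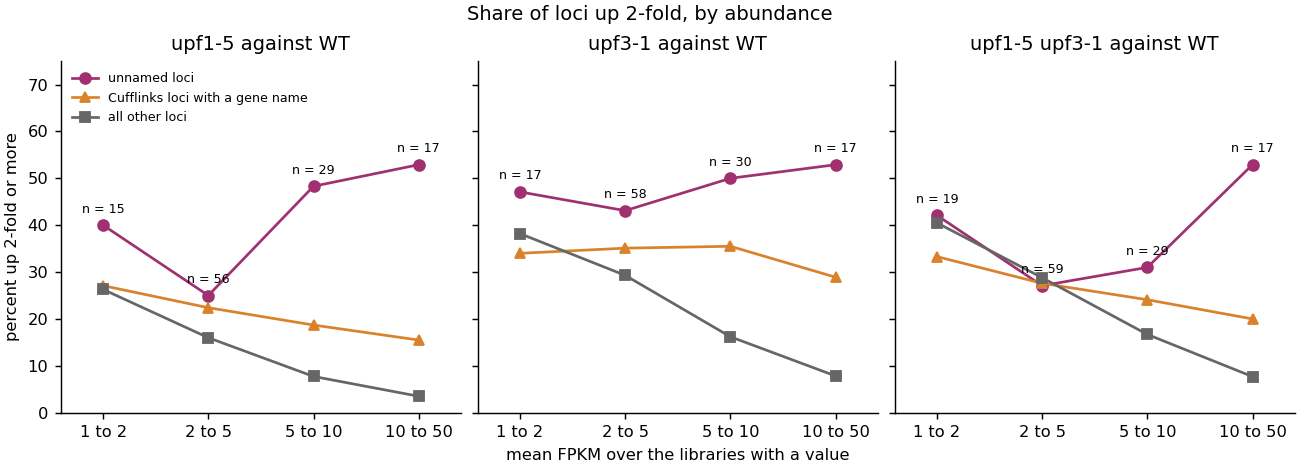
Percent of loci up-regulated at least 2-fold against WT by class of mean FPKM, for unnamed loci, named XLOC_ loci and all other loci, with the number of unnamed loci compared at each point. At 10 to 50 FPKM the unnamed loci stand at 52.9% in each mutant, and at 2 to 5 FPKM in the double mutant they stand at 27.1% beside 28.8% of other loci.

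The loci with the most uniform rise are those whose smallest ratio to WT among the mutants is highest, of 112 loci with values in every library that passed 1 FPKM in each comparison. XLOC_001926 was measured at 0.261 FPKM in WT, 26.6 (*upf1-5*), 38.0 (*upf3-1*) and 17.9 FPKM (double mutant), a smallest ratio of 68.5. It was nearly silent in WT and moderately expressed in each mutant. XLOC_015108 rose from 0.253 FPKM in WT to 4.04 (*upf1-5*), 3.41 (*upf3-1*) and 3.14 FPKM (double mutant). XLOC_007195 rose from 0.426 FPKM in WT to 5.62 (*upf1-5*), 7.71 (*upf3-1*) and 4.67 FPKM (double mutant). For these loci every mutant lay at least 11.0-fold above WT, and at XLOC_015108 and XLOC_007195 the mutants differed less than 2-fold from one another. All had less than 1 FPKM in WT, where a value can rest on few reads, and the number of those reads is unknown.

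XLOC_027210 and XLOC_012158 rose further when both genes were mutated. XLOC_027210 was at 0.575 FPKM in WT, 5.27 (*upf1-5*), 11.1 (*upf3-1*) and 32.4 FPKM (double mutant). XLOC_012158 was at 0.436 FPKM in WT, 4.22 (*upf1-5*), 2.52 (*upf3-1*) and 18.2 FPKM (double mutant). The double mutant exceeded the higher single mutant 4.30-fold at XLOC_012158. The identifier of XLOC_027210 follows that of XLOC_027209, which had no WT value and was also highest in the double mutant. XLOC_000771, at 0.277 FPKM in WT, was highest in *upf3-1* (4.25 FPKM), with 1.67 FPKM in *upf1-5* and 2.06 FPKM in the double mutant.

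Uniform falls were smaller. XLOC_013428 was measured at 7.03 FPKM in WT, 0.644 (*upf1-5*), 0.775 (*upf3-1*) and 1.06 FPKM (double mutant), at least 6.60-fold lower in each. XLOC_008920 fell from 5.62 FPKM in WT to 1.30, 1.07 and 1.33 FPKM, at least 4.23-fold. XLOC_032068 fell from 19.4 FPKM in WT to 8.38 (*upf1-5*), 1.38 (*upf3-1*) and 2.17 FPKM (double mutant). The fall at XLOC_032068 was thus deeper in the libraries with the *upf3-1* mutation. The other loci of this rank, XLOC_019694, XLOC_024100 and XLOC_019920, had between 3.58 and 6.22 FPKM in WT and were lower by at least 1.91-, 1.75- and 1.74-fold in every mutant, so not all of their differences reached 2-fold.

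**Figure D4:**
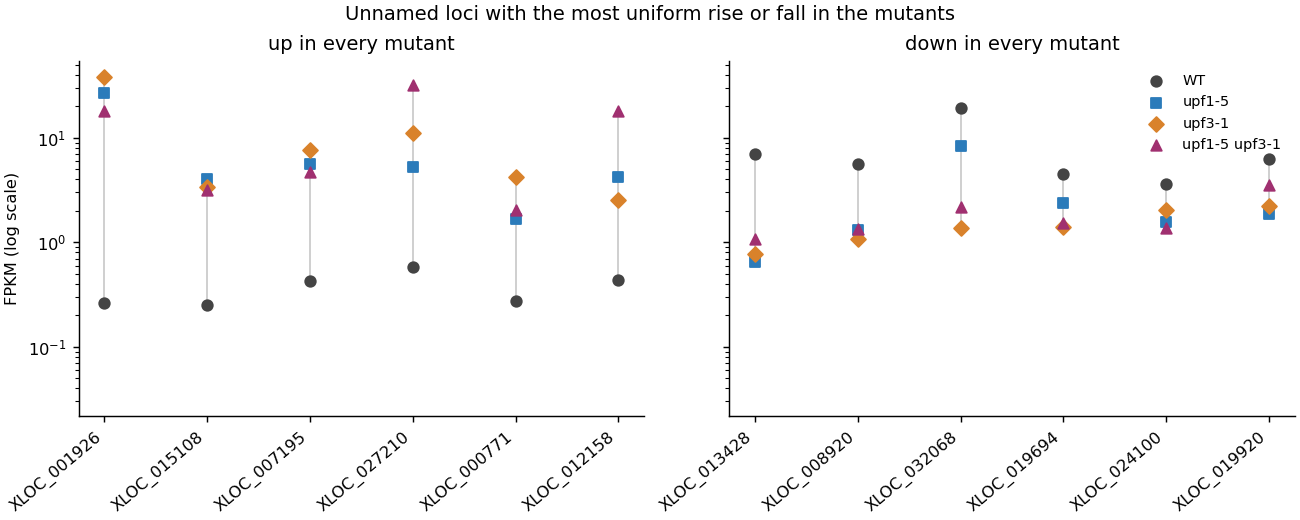
FPKM on a log scale in each library for the 6 unnamed loci with the most uniform rise (left) and the 6 with the most uniform fall (right) in the mutants. WT is the lowest point of each locus on the left, from 0.253 to 0.575 FPKM, and the highest on the right, from 3.58 to 19.4 FPKM.

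Of the 5 unnamed loci with the highest mean over the 4 libraries, the first 3 did not follow the tendency to rise. XLOC_018404 was measured at 274 FPKM in WT, 299 (*upf1-5*), 279 (*upf3-1*) and 171 FPKM (double mutant). XLOC_018953 was at 181, 172, 176.5 and 188 FPKM in the same order, a highest value 1.09-fold above the lowest, which made it the most even of the unnamed loci above 10 FPKM in every library. XLOC_022694 was at 69.1 FPKM in WT, 51.3 (*upf1-5*), 40.4 (*upf3-1*) and 39.5 FPKM (double mutant). WT was the highest library for XLOC_022694, and no mutant differed 2-fold from WT at these 3 loci. XLOC_007792 was different, with 16.1 FPKM in WT, 78.1 (*upf1-5*), 59.1 (*upf3-1*) and 46.6 FPKM (double mutant). XLOC_008079 was highest in *upf1-5* (69.1 FPKM), with 23.2 (WT), 35.1 (*upf3-1*) and 21.2 FPKM (double mutant) in the others. XLOC_004724, at 14.1, 17.7, 12.9 and 10.2 FPKM, was among the 7 loci with 10 FPKM or more in every library and varied 1.73-fold.

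The unnamed loci varied more among the libraries than all loci did, and the named XLOC_ loci lay between. Among the 129 with a value in every library, the highest value was a median of 3.65-fold above the lowest, with quartiles of 2.49 and 9.65. The same ratio was 1.65 over all loci, 2.69 over the named XLOC_ loci and 2.16 over the long non-coding RNA genes. It stayed under 2 for 18 unnamed loci (14%) and for 66% of all loci, and it was 10 or more for 31 unnamed loci (24%) and for 3.42% of all loci. In the class of 10 to 50 FPKM the medians were 3.43 for unnamed and 1.48 for other loci. A locus can enter this class through the library in which it is high. The class therefore cannot show whether strong unnamed loci also varied more. Above 50 FPKM the medians were 1.74 over 3 unnamed loci and 1.60 over other loci.

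WT was seldom the library with the highest value. It held the highest value of 14 of the 129 unnamed loci (10.9%) and the lowest value of 48 (37.2%). *upf3-1* held the highest value of 50 loci (38.8%), *upf1-5* of 34 (26.4%) and the double mutant of 31 (24%). Over all loci, WT held the highest value in 30.4% of cases and *upf3-1* in 25.2%. The named XLOC_ loci resembled the unnamed ones in this respect, with WT highest in 18.4% and *upf3-1* in 41.7%.

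At some loci the double mutant lay farthest above or below all other libraries, ranked among 79 loci that reached 5 FPKM in their highest library. XLOC_007392 was measured at 0.210 FPKM in WT, 1.06 (*upf1-5*), 1.93 (*upf3-1*) and 17.6 FPKM (double mutant), 9.14-fold above the next library. XLOC_024869 was at 0.463, 3.31, 1.33 and 20.0 FPKM in the same order, 6.04-fold above the next. Both passed the limit of 5 FPKM through the double mutant only. Both were also above WT in the single mutants, 5.03-fold (*upf1-5*) and 9.17-fold (*upf3-1*) at XLOC_007392, and 7.15- and 2.87-fold at XLOC_024869. The opposite was seen at XLOC_031237, which was measured at 4.07 FPKM in WT, 6.17 (*upf1-5*), 5.55 (*upf3-1*) and 0.146 FPKM (double mutant), 28.0-fold below the lowest of the others. XLOC_008469 was at 3.20, 8.08, 5.67 and 0.837 FPKM, 3.82-fold below. XLOC_013431, at 28.7, 36.2, 32.4 and 17.1 FPKM, was 1.68-fold below and so short of 2-fold. At these loci the double mutant lay outside the range of the other libraries.

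Other loci stood out in a single mutant. XLOC_024859 was highest in *upf1-5* (12.0 FPKM), with 3.55 (WT), 3.93 (*upf3-1*) and 5.68 FPKM (double mutant) in the others. XLOC_028704 was lowest in *upf1-5* (0.301 FPKM), with 2.69 (WT), 5.15 (*upf3-1*) and 1.18 FPKM (double mutant) in the others. XLOC_013427 was also lowest in *upf1-5* (2.77 FPKM), with 9.67 (WT), 9.93 (*upf3-1*) and 31.2 FPKM (double mutant) in the others. At XLOC_013427 the level was therefore low with *upf1-5* alone and high with both mutations. In *upf3-1*, XLOC_032077 was raised to 11.5 FPKM, 9.04-fold above the next library, with 0.530 (WT), 1.27 (*upf1-5*) and 0.342 FPKM (double mutant) in the others. XLOC_006858 was raised there to 15.2 FPKM, with 3.54 FPKM in WT, 2.14 FPKM in *upf1-5* and 3.95 FPKM in the double mutant. XLOC_009060 was reduced to 0.537 FPKM in *upf3-1*, with 9.31 FPKM in WT, 10.6 FPKM in *upf1-5* and 1.82 FPKM in the double mutant. XLOC_019915 was reduced to 0.726 FPKM in *upf3-1*, with 7.08 FPKM in WT, 7.84 FPKM in *upf1-5* and 1.99 FPKM in the double mutant. At XLOC_009060 and XLOC_019915 the double mutant lay between *upf3-1* and the libraries with intact *UPF3*.

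To ask whether a mutation had a like effect in WT and in the other mutant, ratios without a common library were compared. The *upf3-1* mutation was read as *upf3-1* over WT and as the double mutant over *upf1-5*. Of 120 unnamed loci compared, 22 (18.3%) were up-regulated in both and 6 (5%) in the first and down-regulated in the second, against 5.09% and 0.505% of all loci. Another 6 (5%) were down-regulated in both and 3 (2.5%) went from down- to up-regulated, against 1.51% and 0.355% of all loci. For the *upf1-5* mutation, read as *upf1-5* over WT and as the double mutant over *upf3-1*, 7 of 116 (6.03%) were up-regulated in both and 10 (8.62%) went from up- to down-regulated, against 1.61% and 0.821% of all loci. In addition, 3 (2.59%) were down-regulated in both and 4 (3.45%) went from down- to up-regulated, against 0.447% and 0.41% of all loci. The named XLOC_ loci also exceeded all loci, with 7.51% up-regulated in both and 3.42% from up to down for *upf3-1*, and 2.34% and 4.41% for *upf1-5*. Of them, 2.46% were down-regulated in both and 0.956% went from down to up for *upf3-1*, and 4.13% and 1.79% for *upf1-5*. As a description across loci, which are not replicates and share the libraries, Pearson's r between the log2(FPKM + 1) ratios was taken. For *upf3-1* it was 0.233 over 129 unnamed loci, 0.497 over 20048 loci of the table and 0.228 over 789 named XLOC_ loci. For *upf1-5* it was -0.056, 0.117 and 0.063 in the same order. Without the added 1 FPKM it was 0.254, 0.335 and 0.0094 for *upf3-1*, and -0.025, 0.046 and -0.091 for *upf1-5*. The named XLOC_ loci were thus below all loci as well.

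**Figure D5:**
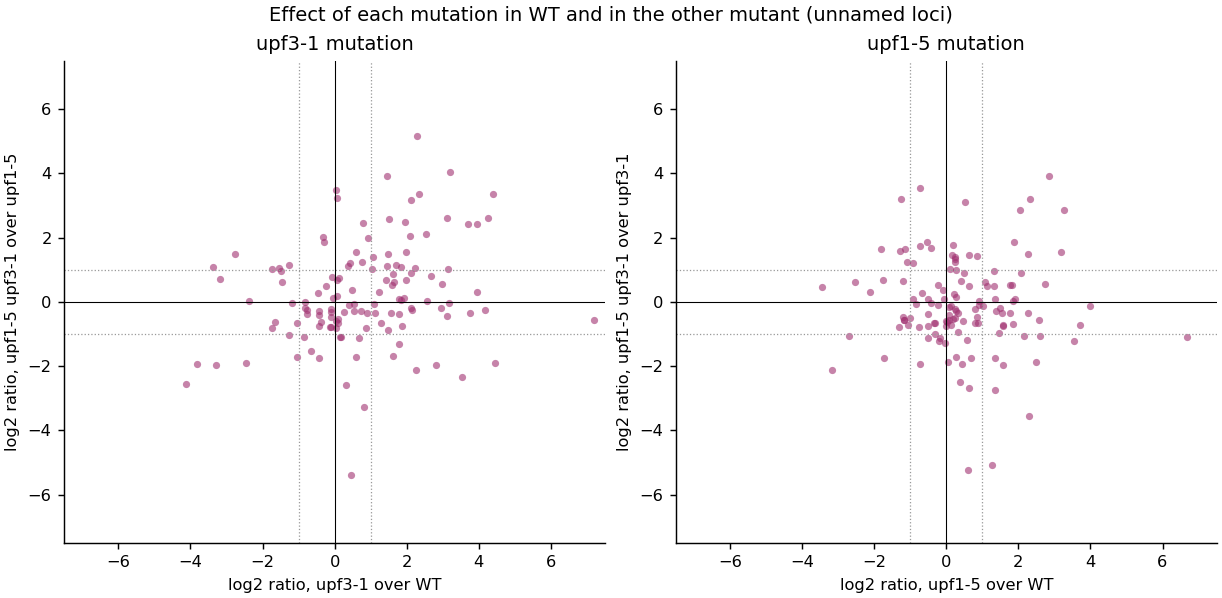
Log2 FPKM ratio of each of the 129 unnamed loci with a value in every library for the *upf3-1* mutation (left) and the *upf1-5* mutation (right), in the WT background (x axis) and in the other mutant (y axis), with dotted lines at 2-fold. Of 120 loci compared for *upf3-1*, 22 lie beyond the upper right dotted lines, and of 116 for *upf1-5*, 7 do.

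The mutants were also compared with each other. In the double mutant against *upf1-5*, 48 of 146 unnamed loci (32.9%) were up-regulated, against 9.64% of all loci, and 28 (19.2%) were down-regulated, against 4.47%. Against *upf3-1*, 31 of 145 (21.4%) were up-regulated, against 6.67% of all loci, and 32 (22.1%) were down-regulated, against 4.69%. The addition of *upf1-5* to *upf3-1* thus went with changes in both directions in near-equal numbers. In *upf3-1* against *upf1-5*, 47 of 134 (35.1%) were up-regulated, against 8.82% of all loci, and 20 (14.9%) were down-regulated, against 5.33%. Higher shares than over all loci were also found for the named XLOC_ loci, with 17.8% up and 12.7% down in the double mutant against *upf1-5*, 12.5% and 20.6% against *upf3-1*, and 23.7% and 12.3% in *upf3-1* against *upf1-5*.

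Known non-coding RNAs of Arabidopsis gave mixed values beside these. *IPS1*, an RNA of the phosphate starvation response that sequesters miR399, was measured at 30.9 FPKM in WT, 83.0 (*upf1-5*), 96.7 (*upf3-1*) and 89.3 FPKM (double mutant). *AT4*, of the same family, was at 179, 231, 327 and 935 FPKM. Both were thus higher in every mutant, by at least 2.69-fold for *IPS1* and by 1.29-fold or more for *AT4*. RefSeq types *IPS1* and *AT4* as protein-coding, so the class shares above count them among the protein-coding genes. The *TAS* genes give rise to trans-acting small RNAs, and *TAS3* was at 248 FPKM in WT, 245 (*upf1-5*), 264 (*upf3-1*) and 143 FPKM (double mutant). *TAS1A*, *TAS1B*, *TAS1C* and *TAS2* differed less than 2-fold from WT in every mutant, and so did *GUT15*, with 299 to 352 FPKM.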

How the data were processed

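RNA from pooled seedlings was sequenced with 1 library for each of 4 genotypes. Per the labels, the authors aligned reads with TopHat to TAIR10 and assembled and quantified loci with Cufflinks. The deposited table gives, for each pair of libraries, the total FPKM of a locus and the fold ratio between the libraries, to 2 decimals. Its q-value column, the authors' own comparison, was not used, and 0 columns of per-sample values were left unmapped. The FPKM of each library was solved from total and ratio, and averaged over pairs by rounding error. Of the members' values, 480 of 1 FPKM or more had several estimates, which differed by at most 0.614%. The recovery was tested on simulated data. The table's NMD2 was taken as the double mutant, by elimination.

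Loci were compared by a fold of 2 and 1 FPKM in at least 1 library, without a test, as no genotype had a replicate. Of 21284 annotated genes, 21185 were matched to RefSeq TAIR10.1 for gene type. Named loci were those that ranked first for a uniform rise or fall, mean FPKM, a high or low value in 1 mutant, evenness, and highest FPKM with a missing value. *UPF1*, *UPF3* and a list of known non-coding RNAs were added. The members, lists and rules were chosen with earlier results of these data known. Alternatives were a fold of 4, other FPKM limits, 2 rescalings, a pseudocount of 1 and missing values at 0, and, chosen after seeing the data, loci outside runs of consecutive identifiers. Python 3.11.15, NumPy 2.4.6, pandas 2.3.3 and matplotlib 3.10.9 were used.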

Additional observations from a re-analysis of the deposited data

Results flagged for a closer look

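Among unnamed loci that reached 10 FPKM, a mutation had opposite 2-fold effects in WT and in the other mutant at 4 loci for *upf3-1* and at 8 loci for *upf1-5*. These were 9.09% and 18.2% of the 44 unnamed loci compared, beside 0.324% and 0.581% of all loci and 2.99% and 5.22% of the named XLOC_ loci that reached this level. The limit of 10 FPKM applied to the highest library alone. A locus could thus pass it through the same value that made its effects opposite. The 4 loci for *upf3-1* are all among the 8 loci for *upf1-5*. With 1 library per genotype, none of these differences was tested. XLOC_006159 was measured at 8.07 FPKM in WT, 45.3 (*upf1-5*), 38.5 (*upf3-1*) and 10.5 FPKM (double mutant), so that its ratio to WT was 4.77 in *upf3-1* and 5.61 in *upf1-5* while the double mutant was near WT. XLOC_008082 (1.11, 13.1, 7.86 and 3.38 FPKM in the same order) had ratios to WT of 7.06 in *upf3-1* and 11.8 in *upf1-5*. XLOC_015590 (1.56, 7.71, 18.0 and 1.52 FPKM) had ratios of 11.5 and 4.93. At these 3 loci each single mutant exceeded both WT and the double mutant.

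XLOC_032077 (0.530, 1.27, 11.5 and 0.342 FPKM) had ratios to WT of 21.7 in *upf3-1* and 2.4 in *upf1-5*, and the double mutant was below WT. For *upf1-5* alone, the ratio to WT was 102 at XLOC_001926, 4.42 at XLOC_003380 (5.26, 23.3, 47.3 and 22.7 FPKM) and 2.99 at XLOC_008083 (1.52, 4.55, 13.1 and 3.35 FPKM), and in each the double mutant was lower than *upf3-1*. At XLOC_013427 the ratio was 0.287, and the double mutant was higher than *upf3-1*.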

How the results depend on the processing

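No paired analysis was possible because each genotype had 1 library, and no library could be left out. No count or median reversed under any alternative, and more unnamed loci were up- than down-regulated against WT in each mutant under all of them. Over all loci, too, more were up- than down-regulated against WT in the main comparisons, so this excess is not particular to the unnamed loci. All counts were within 1.5 times under no FPKM limit, both rescalings and missing values at 0. With missing values at 0, the double mutant against *upf3-1* had 38 loci up and 34 down, in place of 31 and 32. The cause of the shifts that follow was not tested. At a fold of 4, up and down counts were 19 and 6 for *upf1-5*, 31 and 10 for *upf3-1*, and 30 and 8 for the double mutant against WT, 25 and 10 for the double mutant against *upf1-5*, 11 and 12 against *upf3-1*, and 16 and 8 for *upf3-1* against *upf1-5*. The unnamed loci compared numbered 122, 126, 133, 146, 145 and 134. Of all loci, 1.98% and 0.612%, 5.3% and 1.18%, and 6.13% and 1.03% were up and down against WT. Between mutants these shares were 2.84% and 0.872%, 2.17% and 1.15%, and 2.29% and 1.26%. With 1 FPKM in both libraries the counts were, in this order of comparisons, 23 and 10, 30 and 10, 14 and 11, 29 and 18, 19 up, and 12 down. The unnamed loci compared numbered 89, 86, 90, 116, 118 and 112. The shares of all loci against WT were 4.74% and 1.36%, 10.7% and 5.98%, and 10.4% and 6.29%. Between mutants they were 6.73% and 3.45%, 4.26% up, and 3.81% down. With 5 FPKM in at least 1 library the counts were 22 and 6, 30 and 10, 23 and 7, 22 and 17, 17 up, and 26 and 10. The unnamed loci compared numbered 55, 64, 59, 71, 77 and 70. The shares of all loci against WT were 4.23% and 1.14%, 10.8% and 6.15%, and 11% and 6.69%. Between mutants they were 6.49% and 3.54%, 4.28% up, and 5.99% and 3.66%. The medians of *upf3-1* and the double mutant against WT over the unnamed loci were 0.87 and 0.64. A pseudocount of 1 FPKM left 9 down in *upf1-5* and 13 down in *upf3-1*, 31 up for the double mutant against *upf1-5*, 29 up for *upf3-1* against *upf1-5*, and medians of 0.60 and 0.34. These counts are of 122, 126, 146 and 134 unnamed loci compared. The shares of all loci were 1.18% and 5.04% down, and 6.28% and 5.7% up. Outside the runs of consecutive identifiers, 11, 9 and 10 were down against WT in *upf1-5*, *upf3-1* and the double mutant, 13 were down in the double mutant against *upf1-5*, 29 were up and 12 down in *upf3-1* against *upf1-5*, and the medians were 0.94 and 0.66. These counts are of 80, 79, 86, 94 and 88 unnamed loci compared, a smaller set in which counts are lower at equal shares. The shares down against WT were 13.8%, 11.4% and 11.6%, beside 13.9%, 15.9% and 13.5% of all unnamed loci. In the double mutant against *upf1-5* 13.8% were down, beside 19.2%. In *upf3-1* against *upf1-5* 33% were up and 13.6% down, beside 35.1% and 14.9%. Of all loci, 2.4%, 6.91%, 6.91% and 4.47% were down. In *upf3-1* against *upf1-5*, 8.82% of all loci were up and 5.33% down.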

Other observations

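The identifiers of the unnamed loci were not spread evenly. In identifier order, 60 of the 161 loci fell into 5 runs of 10 to 17 loci with consecutive or nearly consecutive numbers and no named locus among them, from XLOC_008070 to XLOC_008087, XLOC_013423 to XLOC_013433, XLOC_019911 to XLOC_019920, XLOC_024859 to XLOC_024870 and XLOC_032066 to XLOC_032078. The first run lies between the last identifier named after a gene of chromosome 1 and the first of chromosome 2, the next runs lie likewise at the changes from 2 to 3, 3 to 4 and 4 to 5, and the last follows all identifiers named after genes of chromosome 5. No position was assigned to these loci from their numbers. The loci of the runs were up-regulated in 28.6% (*upf1-5*), 38.3% (*upf3-1*) and 31.9% (double mutant) of cases, and the loci outside them in 40%, 49.4% and 34.9%. The median log2 ratio to WT in *upf3-1* was 0.17 within the runs and 0.94 outside. Loci with uneven values across the libraries were found within the runs and outside them. Within the runs they included XLOC_008072, XLOC_008082, XLOC_013427, XLOC_013433, XLOC_024869 and XLOC_032077. Outside them they included XLOC_001926, XLOC_007392, XLOC_027210 and XLOC_031237, with a highest value 146-, 83.8-, 56.3- and 42.4-fold above the lowest. The runs were noticed after the values were seen, and what they are was not tested.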
